A study of Oryza sativa Indica Group with 11 samples.

Results

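Transcript levels of 37 rice genes chosen by name for potassium and calcium transport were followed in the crown and growing point under salt. The genes were those measured by a probe set of exactly 1 gene whose symbol or synonym begins with one of 16 family names of cation transport, with HKT1;5 left out. Only 7 of these names had a member, and the 37 genes stand among 17905 genes measured in this way. They comprised 22 potassium carriers of the HAK family, 9 calcium transporters (4 CAX and 5 ACA) and 1 glutamate receptor-like channel, GLR3.1. The other 5 were classed as potassium channels, AKT1 and 4 genes named TPK or KCO. Of these, KCO1 and KCO2 have the synonyms TPKA and TPKB of two-pore potassium channels. TPK2 and TPK3 were classed by name alone, and their names here do not show whether they are channels. Apart from the omitted HKT1;5 no gene named HKT, NHX, SOS, KAT, KOR, KEA, CHX, CNGC or CLC was among them. No family best known for moving sodium was thus represented. The genes are described as potassium and calcium transporters, TPK2 and TPK3 by name only. By name 52 genes of the RefSeq table fitted the rule, and those without such a probe set were not analysed here. The 37 genes have 48 such probe sets, 10 genes have more than 1, and each gene was represented by the probe set with the highest mean.

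Plants take up potassium through carriers of the HAK family, which work at low outside concentrations, and through voltage-gated channels such as AKT1. Sodium competes with potassium for entry and for binding inside the cell, and keeping a high ratio of potassium to sodium in growing shoot tissue is a known feature of salt tolerance in rice. Salt also sets off a rise of calcium in the cytosol, which ACA pumps and CAX exchangers remove again, and calcium sensors of the CBL family with their CIPK kinases pass the signal to transporters.

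The study compared 2 genotypes of rice, each represented by a single line. The indica cultivar IR29 is sensitive to salt. FL478 is tolerant, an inbred line bred from IR29 and the landrace Pokkali. Tissue of several plants was pooled for each of 11 Affymetrix arrays, with 3 control and 3 salt-stressed samples of FL478 and 2 control and 3 salt-stressed samples of IR29. The labels used here give no salt dose, duration or plant age. Levels are quantile-normalised signal intensities on a linear scale, and changes are log2 differences of intensity plus 16 from limma. Samples within a group are named biological replicates by the submitters, and p-values measure only the spread between these samples. In pooled tissue, fewer cells of a type and less RNA per cell cannot be told apart.

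Marker genes were read beside the tissue label. OSH1, a homeobox gene of the shoot meristem, was measured between 3195 and 6782 on all arrays. It belongs to a growing point list of 12 genes matched by name, which were not checked to be specific to the growing point. The other genes of this list differed widely, with HOS58 at 6109 to 7513, LOG at 118 to 317 and OSH43 at 69.4 to 201. The sum of this list was 18892 to 22757 over the arrays. Leaf genes were measured too, with a sum of 31223 to 47269 for 5 genes and 22680 to 35735 for CAB2R alone. The summed level of 6 xylem and secondary wall genes was 4375 to 4867 in FL478 controls and 5106 to 7484 under salt. In IR29 it was 4092 and 4812 in controls and 7268 to 10571 under salt, so it did not overlap between salt and control in either line. The sum of 6 root genes was 1424 to 2034 in FL478 controls and 1157 to 1664 under salt, and in IR29 it was 1520 and 1664 in controls and 1375 to 1605 under salt. The sum of 24 genes of dividing cells was 53361 and 64528 in IR29 controls against 41690 to 51802 under salt, and 53723 to 61924 in FL478 controls against 47223 to 54572 under salt. The part of these shifts in the results below was not tested. IR29 control replicate 1, FL478 salt replicate 2 and FL478 control replicates 2 and 3 stood apart from their groups on principal components, and the changes below kept their sign without each of these arrays where the unadjusted p was under 0.05. Array medians ran from 48.3 to 73.2, and the 3'/5' signal ratio of cyclophilin, which rises with RNA degradation, was 1.00 to 1.16 (log2) in the salt arrays of IR29 against 0.71 and 0.91 in its controls. Salt arrays of FL478 gave 1.055, 1.238 and 0.693 for this ratio, overlapping its control arrays at 0.411, 0.727 and 0.880. The actin ratio also separated the IR29 salt arrays (0.786, 0.768 and 0.658) from their controls (0.481 and 0.504). The GAPDH ratio did not, at 0.407, 0.561 and 0.335 against 0.557 and 0.281.

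Most of the genes were measurable in this tissue. The chosen probe set lay above the array median on every array for 25 of the 37 genes. These included 13 of the 22 HAK carriers and all 5 genes classed as potassium channels. It lay above the median on some arrays only for HAK1, HAK3, HAK13, HAK14, HAK16, HAK22, ACA7 and CAX1b, and below it on all arrays for ACA1, HAK20, HAK26 and HAK27. For 7 genes the intensity was under 16 on at least 1 array, where a log2 change depends on the added constant. The chosen probe set is of the x_at class for HAK1, HAK3, HAK7, HAK15, HAK22 and AKT1 and of the s_at class for HAK23, classes whose probes can also read related transcripts.

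Several carriers, among them HAK2, HAK5, HAK15 and HAK25, had narrow ranges over the 11 arrays. HAK5, which takes up potassium and moves it from root to shoot, lay between 9101 and 13372, a 1.47-fold range. HAK2 lay between 1341 and 1551, a 1.16-fold range, and HAK25 between 2010.5 and 2664. The salt changes of HAK25 were 0.07 ± 0.11 (SE) in FL478 and 0.04 ± 0.13 (SE) in IR29. The range of HAK15 was 1349.7 to 1825. HAK10, a carrier of the vacuolar membrane, ranged more widely, from 278 to 514 (1.85-fold). So did HAK12, which returns sodium from the xylem sap in rice roots, at 359 to 612 (1.71-fold). The salt change of HAK12 was -0.02 ± 0.20 (SE) in FL478 and 0.26 ± 0.22 (SE) in IR29, with unadjusted p-values of 0.904 and 0.256 by limma. The corresponding changes of HAK10 were -0.31 ± 0.21 and 0.19 ± 0.23.

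The spread between arrays of a group differed widely among the genes. The residual SD on the log2 scale was 0.07 for HAK2 and 0.08 for HAK15, and 0.65 for both HAK13 and HAK20. For HAK22 it was 0.36 while the group means spanned 1.92, and for HAK4 it was 0.31 with a span of 1.41. In contrast, the group means of HAK9 spanned 0.18 at a residual SD of 0.20, and those of HAK11 spanned 0.13 at 0.25.

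Other carriers gave small changes relative to their errors. HAK9 had salt changes of 0.06 ± 0.17 in FL478 and 0.17 ± 0.19 in IR29 (SE), and HAK11, at 559 to 866, of -0.03 ± 0.19 and 0.13 ± 0.21. HAK17 lay between 108 and 279, with salt changes of -0.40 ± 0.31 and 0.09 ± 0.34. None of these 3 chosen probe sets had an unadjusted p under 0.05 in any of the 6 comparisons. A second probe set of HAK17 had an IR29 salt change of 1.10 ± 0.48 (SE, n = 3 and 2) (limma, unadjusted p = 0.0396, adjusted p = 0.648).

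HAK14 lay at 24.0 to 76.3. HAK3 read 11.7 to 24.6 in FL478 controls and 65.2, 13.8 and 12.9 under salt, where 1 array alone was high. HAK20 lay between 2.30 and 42.7, HAK26 between 1.32 and 22.6, and HAK27 between 3.09 and 48.3, so these 3 were near or under the added constant of 16 on many arrays.

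TPK2 and TPK3, classed as channels by name alone, lay at 495 to 718 and at 65.7 to 179.9. The salt changes of TPK2 were -0.23 ± 0.15 in FL478 and -0.13 ± 0.17 in IR29 (SE), and those of TPK3 were -0.08 ± 0.36 and 0.25 ± 0.41. Among the calcium transporters, CAX2 lay at 495 to 763, ACA8 at 615 to 815 and ACA7 at 26.4 to 105. CAX2 had salt changes of 0.06 ± 0.16 and 0.13 ± 0.18, both with an unadjusted p over 0.05 by limma.

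**Figure D1:**
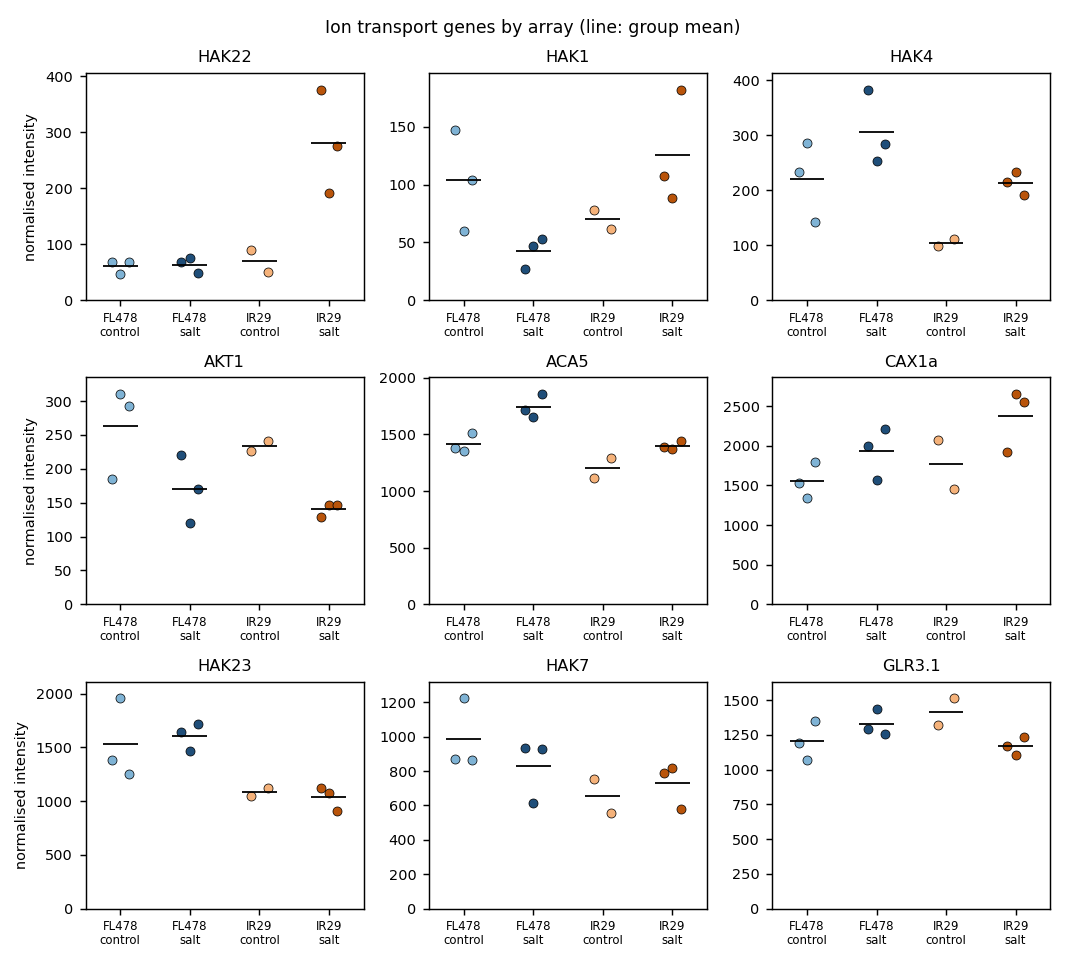
Normalised signal intensity (linear axis) of selected transporter genes on each of the 11 arrays by line and treatment, with a line at the group mean. HAK22 lies at 192 to 375 in the IR29 salt arrays and at 46.0 to 89.1 on the other 8 arrays.

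The first comparison asked which of these genes differed between salt-stressed and control plants of the tolerant line FL478. HAK1 (LOC4335729), a high-affinity carrier of potassium uptake, was lower in every salt array. HAK1 was measured at 148, 59.6 and 104 in controls and at 27.2, 47.3 and 52.6 under salt. Every salt array lay below every control array, and the log2 change was -0.99 ± 0.39 (SE, n = 3 and 3), 1.99-fold lower (limma, unadjusted p = 0.0245, adjusted p = 0.905). AKT1 (LOC4326245), the inward-rectifying channel of potassium uptake in rice roots, had 185, 310.1 and 293 in controls and 221, 119.7 and 171 under salt. These groups overlapped, with a change of -0.58 ± 0.26 (SE, n = 3 and 3) and an unadjusted p of 0.0453 (adjusted p = 0.91 by limma). Without FL478 salt replicate 2 the AKT1 change was -0.38 (unadjusted p = 0.185).

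ACA5 (LOC4336912), a calcium-pumping ATPase, was the only gene of the set higher at an unadjusted p under 0.05. Its intensities were 1384, 1358 and 1515 in FL478 controls and 1716, 1656 and 1855 under salt. All salt arrays lay above all controls, and the change was 0.29 ± 0.11 (SE, n = 3 and 3) (limma, unadjusted p = 0.0176, adjusted p = 0.905). ACA1 also had a change of -0.42 ± 0.18 (SE, n = 3 and 3), but all its intensities were under 16.

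None of the 37 genes was called in FL478 at an adjusted p under 0.05 by limma, where 0.00873% of all probe sets were called. Counted at an unadjusted p under 0.05, 1 was higher (ACA5) and 3 lower (ACA1, HAK1 and AKT1), against 2.67% higher and 2.54% lower of all genes. Groups did not overlap for 1 gene on the higher side and for 3 on the lower side (ACA1, ACA8 and HAK1), against 5.26% and 4.85% of all genes. In all, 13 of 37 changes were above 0, against 49.7% of all genes, and their median was -0.09 beside -0.002 for all genes. By role, 8 of 22 HAK carriers, 0 of 5 genes classed as potassium channels and 4 of 9 calcium transporters were above 0.

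In the sensitive line IR29, salt and control plants differed with the smallest p-values of the set at the HAK carriers HAK22 (LOC4342173) and HAK4 (LOC4345789). HAK22 had intensities of 89.1 and 51.1 in IR29 controls and 375, 192 and 275 under salt. The salt arrays were all above the controls, and the change was 1.77 ± 0.38 (SE, n = 3 and 2), 3.42-fold higher (limma, unadjusted p = 0.000495, adjusted p = 0.193). Averaging both probe sets of HAK22 gave 0.65 (unadjusted p = 0.0855 by limma), and the second, dim probe set alone gave -0.47 ± 0.44 (SE, n = 3 and 2). The summed xylem and secondary wall list was higher in these salt arrays too (7268 to 10571 against 4092 and 4812), with 4 of its 6 genes higher at an unadjusted p under 0.05 against 5.25% of all genes, and its part in the HAK22 and HAK4 values was not tested. In FL478, HAK22 had 68.1, 46.0 and 68.2 in controls and 67.8, 74.4 and 47.8 under salt, with a change of 0.05 ± 0.34 (SE, n = 3 and 3).

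HAK4 shares its name with a maize carrier that moves sodium. It had 97.9 and 110.5 in IR29 controls and 216, 232 and 190.2 under salt. These groups did not overlap, and the change was 0.93 ± 0.29 (SE, n = 3 and 2), 1.90-fold higher (limma, unadjusted p = 0.00784, adjusted p = 0.444). In the opposite direction, AKT1 was measured at 227 and 242 in controls and 129, 147 and 147 under salt. Every salt array lay below both controls, with a change of -0.67 ± 0.29 (SE, n = 3 and 2), 1.60-fold lower (limma, unadjusted p = 0.0398, adjusted p = 0.648). With arrays scaled to a common median this AKT1 change was -0.52 (unadjusted p = 0.112 by limma). It kept an unadjusted p under 0.05 in 16 of 23 alternatives and lost it when any IR29 salt array was left out.

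No gene of the set passed an adjusted p under 0.05 in IR29 by limma, where 0.00524% of all probe sets were called. At an unadjusted p under 0.05, 2 were higher and 1 lower, against 5.25% and 3.84% of all genes. Groups did not overlap for 8 genes on the higher side (ACA5, CAX1b, HAK1, HAK4, HAK5, HAK12, HAK13 and HAK22) and for 3 on the lower side (AKT1, GLR3.1 and HAK2), against 12.8% and 13.5% of all genes. Of the 37 changes 23 were above 0, against 49.8% of all genes, with a median of 0.10 beside -0.001. Above 0 were 17 of 22 HAK carriers, 1 of 5 genes classed as potassium channels (TPK3) and 5 of 9 calcium transporters. When arrays were scaled to a common median instead, the median change of the 37 genes was -0.19 in FL478 and 0.23 in IR29, and that of all genes was -0.12 and 0.14.

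**Figure D2:**
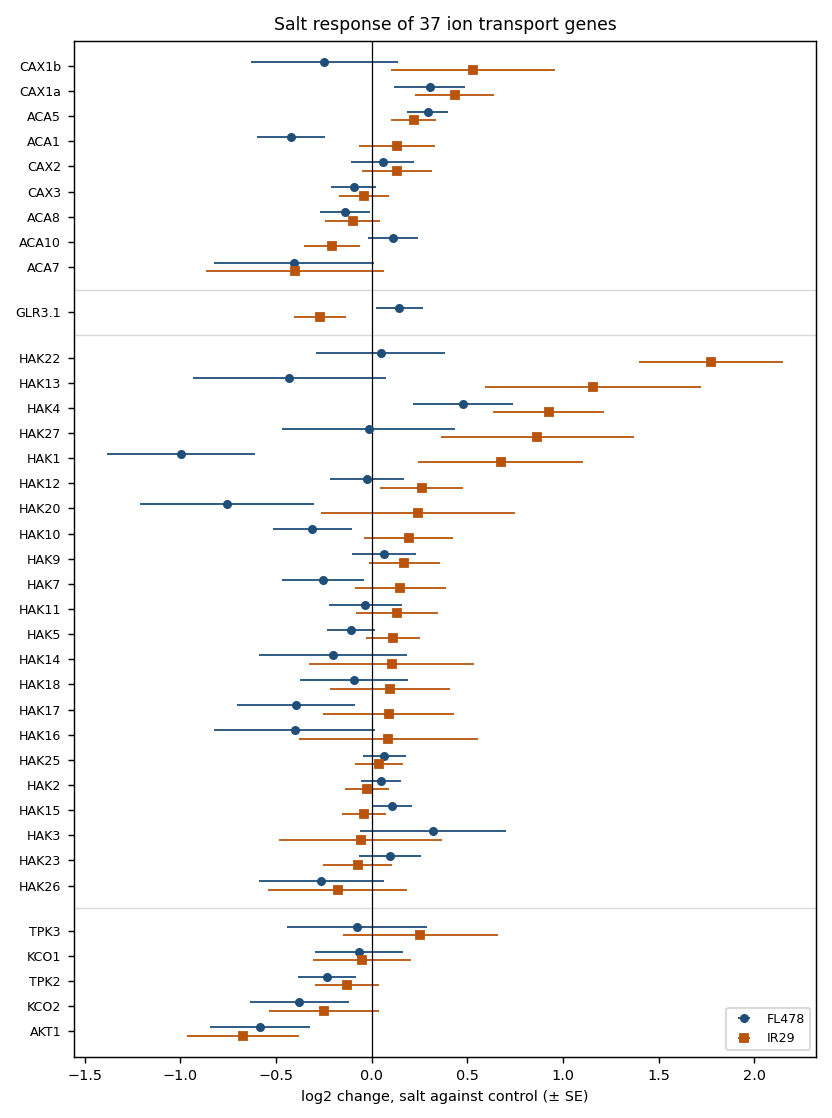
Log2 change between salt and control (± SE from limma) of the 37 genes in FL478 and IR29, grouped by role. HAK22 stands at 1.77 in IR29 and at 0.05 in FL478, and HAK1 at 0.67 and -0.99.

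The next comparison asked whether the lines responded differently to salt. For HAK1, the IR29 arrays read 78.1 and 61.8 in controls and 107, 88.1 and 182 under salt. The salt arrays thus all lay above the controls in IR29 and all below them in FL478. The IR29 change was 0.67 ± 0.43 (SE, n = 3 and 2), and the difference between the responses was 1.67 ± 0.58 (SE, limma, unadjusted p = 0.0139, adjusted p = 0.888). For HAK22 the difference was 1.73 ± 0.50 (SE, unadjusted p = 0.005, adjusted p = 0.848 by limma). With its probe sets averaged it was 0.20 (unadjusted p = 0.669 by limma), and the second, dim probe set gave -1.32 ± 0.59 (SE), opposite in sign.

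GLR3.1, a glutamate receptor-like channel needed for the root meristem of rice, differed the other way. It had 1192, 1067 and 1353 in FL478 controls and 1291, 1438 and 1258 under salt, with overlap. In IR29 it had 1324 and 1513 in controls and 1174, 1106 and 1232 under salt, without overlap. The difference between the responses was -0.42 ± 0.18 (SE, limma, unadjusted p = 0.0422, adjusted p = 0.916). With arrays scaled to a common median it was -0.14 (unadjusted p = 0.647 by limma), and 9 of 22 alternatives kept an unadjusted p under 0.05.

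No difference between the responses passed an adjusted p under 0.05 by limma, either in the set or among all probe sets (0%). At an unadjusted p under 0.05, 2 genes were on the higher side in IR29 (HAK1 and HAK22) and 1 on the lower side (GLR3.1), against 3.06% and 1.86% of all genes. The difference was above 0 for 28 of 37 genes, against 49.8% of all genes, with a median of 0.13 beside -0.002. With arrays scaled to a common median these medians were 0.40 and 0.26.

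The salt response averaged over both lines drew on all 11 arrays. HAK4 was measured in FL478 at 232, 286 and 143 in controls and 382, 253 and 284 under salt, and its average change was 0.70 ± 0.19 (SE, limma, unadjusted p = 0.00367, adjusted p = 0.358). AKT1 had an average change of -0.63 ± 0.20 (SE, unadjusted p = 0.00755, adjusted p = 0.442 by limma). HAK4 was thus on the higher and AKT1 on the lower side under salt in both lines, with overlapping FL478 groups for both.

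Among the calcium transporters, ACA5 had 1115 and 1289 in IR29 controls and 1386, 1368 and 1443 under salt, without overlap. Its average change was 0.26 ± 0.08 (SE, limma, unadjusted p = 0.00753, adjusted p = 0.442). It was 0.29 ± 0.11 in FL478 alone. With arrays scaled to a common median the FL478 change of ACA5 was 0.17, with an unadjusted p of 0.381. CAX1a, an exchanger of calcium for protons at the vacuole, had 1533, 1340.4 and 1798 in FL478 controls and 2002, 1573 and 2213 under salt. In IR29 it had 2077 and 1453 in controls and 1924, 2651 and 2552 under salt. Salt and control overlapped in both lines, and the average change was 0.37 ± 0.14 (SE, limma, unadjusted p = 0.0207, adjusted p = 0.563). Without IR29 control replicate 2 the average was 0.24 (unadjusted p = 0.131).

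For the average, limma called 0 of the 37 genes at an adjusted p under 0.05, against 0.0332% of all probe sets. At an unadjusted p under 0.05, 4 were higher (ACA5, CAX1a, HAK4 and HAK22) and AKT1 was lower, against 5.24% and 4.48% of all genes. The vacuolar two-pore potassium channels did not pass this threshold. TPKA, listed as KCO1, had an average change of -0.06 ± 0.17, and TPKB, listed as KCO2, of -0.31 ± 0.19. ACA10 and CAX3, with average changes of -0.05 ± 0.10 and -0.07 ± 0.09, lay at 2769 to 3988 and 1740.4 to 2190.4.

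Between the lines, control plants were compared first. HAK4 had 232, 286 and 143 in FL478 and 97.9 and 110.5 in IR29, without overlap, a log2 difference of -0.93 ± 0.29 (SE, n = 2 and 3) or 1.90-fold lower in IR29 (limma, unadjusted p = 0.00776, adjusted p = 0.267). HAK23 (LOC4346918) had 1378, 1955 and 1253 in FL478 controls and 1045 and 1123 in IR29 controls. The groups did not overlap, with a difference of -0.46 ± 0.18 (SE, n = 2 and 3) (limma, unadjusted p = 0.0242, adjusted p = 0.436). Without FL478 control replicate 2 it was -0.27 (unadjusted p = 0.0872). HAK7, another carrier, had 872, 1223 and 862 in FL478 and 752 and 559 in IR29 controls, a difference of -0.57 ± 0.24 (SE, n = 2 and 3) (limma, unadjusted p = 0.0335, adjusted p = 0.492). Without IR29 control replicate 2 the HAK7 difference was -0.36 (unadjusted p = 0.244).

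Limma called 0 of the 37 genes between the lines in control plants at an adjusted p under 0.05, against 0.814% of all probe sets. Without adjustment (p under 0.05), 0 were higher in IR29 and 3 lower (HAK4, HAK7 and HAK23), against 4.9% and 6.2% of all genes. The groups did not overlap for 2 genes higher in IR29 (HAK16 and KCO1) and 7 lower, against 11.9% and 12.7% of all genes. The median difference was -0.12 beside -0.005 for all genes.

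Under salt, HAK22 was higher in IR29 than in FL478 and was the only gene of the set to pass the adjusted threshold in any comparison. FL478 salt arrays read 67.8, 74.4 and 47.8, and those of IR29 read 375, 192 and 275, without overlap. The log2 difference was 1.87 ± 0.34 (SE, n = 3 and 3), 3.66-fold (limma, adjusted p = 0.0126). In control plants, which supply the other arrays of each line, the difference was 0.14 ± 0.38 (SE, n = 2 and 3). The call was lost without FL478 salt replicate 3 (adjusted p = 0.0658), without IR29 salt replicate 1 (adjusted p = 0.0973) and without IR29 salt replicate 3 (adjusted p = 0.0619). It was also lost when both probe sets of HAK22 were averaged, with a difference of 0.52 and an adjusted p of 0.478.

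HAK1 had a difference under salt of 1.25 ± 0.39 (SE, n = 3 and 3), with all IR29 arrays above all FL478 arrays (limma, unadjusted p = 0.0071, adjusted p = 0.181). HAK13, with 14.6, 51.9 and 18.0 in FL478 and 107, 89.0 and 84.5 in IR29, differed by 1.40 ± 0.50 (SE, n = 3 and 3) (limma, unadjusted p = 0.0167, adjusted p = 0.273). HAK16, a carrier of potassium uptake under salt, had 2.71, 5.92 and 41.7 in FL478 and 35.9, 61.9 and 49.0 in IR29, which overlapped, and some of these lay below 16. Its difference was 1.16 ± 0.42 (SE, n = 3 and 3) (unadjusted p = 0.0175 by limma). HAK18, known in rice for moving potassium between shoot and root, differed by 0.73 ± 0.28 (SE, n = 3 and 3) (limma, unadjusted p = 0.024, adjusted p = 0.322).

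CAX1b, a vacuolar exchanger, read 31.2, 53.0 and 43.6 in FL478 and 102, 82.5 and 103 in IR29 under salt. The IR29 arrays all lay above those of FL478, a difference of 0.94 ± 0.38 (SE, n = 3 and 3) (limma, unadjusted p = 0.0308, adjusted p = 0.36). HAK5 read 10110.3, 10043 and 11175 in FL478 and 13372, 12555 and 12727 in IR29, also without overlap, a difference of 0.30 ± 0.13 (SE, n = 3 and 3) (limma, unadjusted p = 0.0331, adjusted p = 0.371). It was 0.58 with arrays scaled to a common median and 0.02 with the dim second probe set averaged in, and 15 of 23 alternatives kept an unadjusted p under 0.05.

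HAK23 was on the lower side in IR29 under salt. It read 1642, 1470.1 and 1717 in FL478 and 1124, 1075 and 904 in IR29, with a difference of -0.63 ± 0.16 (SE, n = 3 and 3) (limma, unadjusted p = 0.00201, adjusted p = 0.0848). The FL478 arrays all lay above those of IR29, as they did in control plants. ACA5 differed by -0.31 ± 0.11 (SE, n = 3 and 3) and HAK15 by -0.25 ± 0.10, and with arrays scaled to a common median these were -0.11 and -0.04. Under that scaling the HAK23 difference was -0.43 (unadjusted p = 0.0816 by limma), so none of the 3 kept an unadjusted p under 0.05.

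By limma 1 of 37 genes was called between the lines under salt, against 1.73% of all probe sets. At an unadjusted p under 0.05, 7 were higher in IR29 (CAX1b, HAK1, HAK5, HAK13, HAK16, HAK18 and HAK22) and 3 lower (ACA5, HAK15 and HAK23), against 8.12% and 7.15% of all genes. The groups did not overlap for 7 genes on the higher side and 5 on the lower side, against 11.2% and 11.4% of all genes. The median difference was 0.03 beside -0.012 for all genes.

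**Figure D3:**
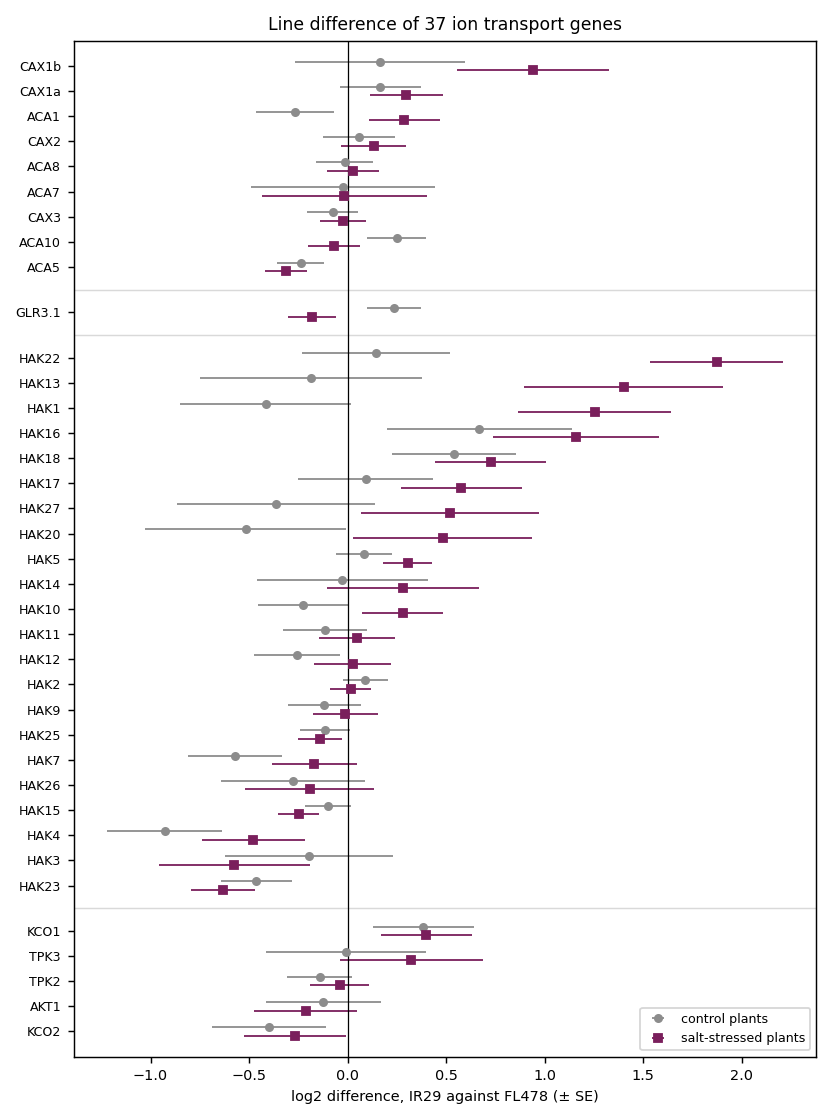
Log2 difference between IR29 and FL478 (± SE from limma) of the 37 genes in control and in salt-stressed plants, grouped by role. HAK22 stands at 1.87 under salt and at 0.14 in controls, and HAK23 at -0.63 and -0.46.

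For some genes a second probe set gave a further reading. The second probe set of HAK1 had 63.0, 75.2 and 44.2 in FL478 controls and 3.36, 20.1 and 27.8 under salt. In IR29 it had 5.21 and 24.9 in controls and 46.1, 44.3 and 84.8 under salt. Salt arrays again lay below controls in FL478 and above them in IR29. The changes were -1.27 ± 0.42 (SE, n = 3 and 3) and 1.29 ± 0.48 (SE, n = 3 and 2), and their difference was 2.57 ± 0.64 (SE, limma, unadjusted p = 0.00168, adjusted p = 0.746). This probe set is dim too, and its readings of 3.36 and 5.21 lay under the added constant. Between control plants it differed by -1.36 ± 0.48 (SE, limma, unadjusted p = 0.0143, adjusted p = 0.357). The chosen probe set differed there by -0.42 ± 0.43 (SE, limma, unadjusted p = 0.355). Under salt the line differences were 1.21 ± 0.42 on the second and 1.25 ± 0.39 on the chosen probe set (SE).

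HAK22 differed between its probe sets. The second read 37.0, 24.9 and 41.4 in FL478 and 31.5, 5.05 and 5.63 in IR29 under salt, a difference of -0.84 ± 0.39 (SE, n = 3 and 3), opposite in sign to that of the chosen probe set. Its control values were 5.52, 19.0 and 12.2 in FL478 and 37.7 and 11.8 in IR29. All 11 intensities of the second probe set lay between 5.05 and 41.4. For HAK7 the second probe set gave a difference of -0.47 ± 0.25 (SE, n = 2 and 3) between control plants, in the same direction as the first, and for GLR3.1 the difference between the responses was -0.14 ± 0.26 (SE).

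**Figure D4:**
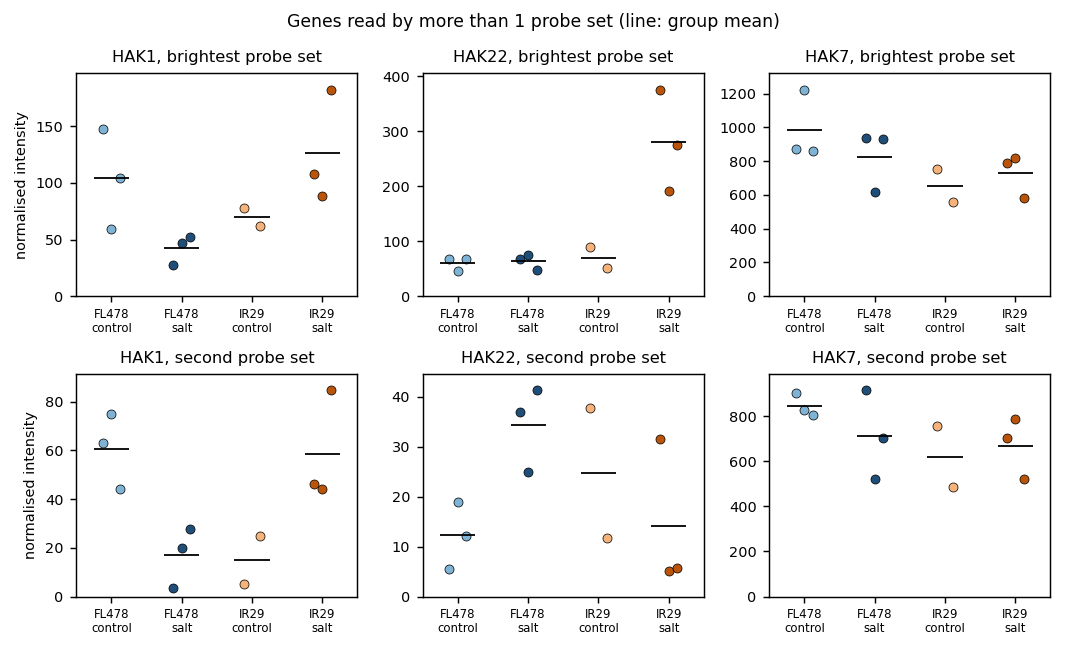
Normalised signal intensity (linear axis) of HAK1, HAK22 and HAK7 on each array for the chosen probe set (upper row) and the second probe set (lower row), with a line at the group mean. HAK1 has salt arrays below controls in FL478 and above them in IR29 on both probe sets, and HAK22 is high in IR29 salt arrays on the chosen probe set only.

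Calcium sensors and kinases named CBL or CIPK were followed as a list of 31 genes matched by name, whatever their targets. In this list 0 were called in any comparison by limma, against 0% to 1.73% of all probe sets. Without adjustment (p under 0.05), 2 were higher (CBL3 and CBL6) and 1 lower (CBL2) in FL478 under salt, and 3 were higher (CBL2, CIPK5 and CIPK19) and 0 lower in IR29. Of all genes 2.67% and 2.54% were so in FL478 and 5.25% and 3.84% in IR29. CBL2 and CIPK5 lay as low as 3.7 and 2.3, under the added constant of 16. CIPK23, the kinase that activates AKT1, lay between 2539 and 3413, and CIPK24, the kinase of the SOS pathway, between 906 and 1493. This CBL2 gene, with values of 3.7 to 67.7, had a difference between the responses of 2.32 ± 0.58 (SE, unadjusted p = 0.00175, adjusted p = 0.746 by limma). A second gene shares that synonym and lay between 881 and 1216.

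Of 7 genes of 14-3-3 proteins, which bind phosphorylated proton pumps and channels, 0 were called in any comparison by limma, against the same 0% to 1.73% of all probe sets. GF14B was lower at an unadjusted p under 0.05 in both lines, with salt changes of -0.38 ± 0.13 (SE) in FL478 and -0.34 ± 0.15 (SE) in IR29. In the RefSeq table HAK27 and HAK16 are neighbours on chromosome 3, and HAK9 lies next to CIPK2 on chromosome 7. HAK27 lay below the array median on every array, and HAK9 had intensities of 551 to 807.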

How the data were processed

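The authors deposited a linear signal intensity for each probe set, for which GCOS 1.2 is named per the submitters' processing notes. Which expression algorithm was used is not given in the sources used here. Every array had a trimmed mean of 500.07.

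The 57258 probe sets left after removing 123 control probe sets were quantile normalised on log2(intensity + 16), so log2 changes of low values are understated. The fit used limma 3.58.1 (R 4.3.3) with 4 group means over 11 arrays, 7 residual degrees of freedom and an intensity trend in the variance prior. P-values are two-sided and Benjamini-Hochberg adjusted over all probe sets, and a call is an adjusted p under 0.05. The fit was tested on simulated data. Tables and plots used Python 3.11.15, pandas 2.3.3 and matplotlib 3.10.9. The number of arrays limits the precision.

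Genes came from the array's annotation, in which 22436 probe sets have 1 gene, 95 several, and 34727 are unnamed. Synonyms came from the RefSeq gene table of ASM3414082v1, used for names and neighbours only. Every gene of the set may be named. Changes with errors are given for called genes, for up to 10 per direction at an unadjusted p under 0.05, for the 3 brightest of each role and for textbook salt genes. Changes of HAK9, HAK10, HAK11, HAK12, HAK17, TPK3 and CAX2 were added after their values were seen. The members and lists were chosen with earlier results of these data known. The list for proton pumps gave no comparison here, since only 1 pump gene, VATP-P1, was matched. The leaf list was used only for its level beside the tissue label. Alternatives varied the scaling, the added constant (1 and 64), the filter, the variance prior, array weights, the probe set rule, the groups fitted, a replicate block and the arrays left out.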

Additional observations from a re-analysis of the deposited data

Results flagged for a closer look

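HAK1, the potassium uptake carrier, was singled out because every salt array lay below every control array in FL478 and above both control arrays in IR29. The same arrays gave this pattern and the p-values that follow, so these are no separate support for it. The difference between the salt responses, IR29 minus FL478, was 1.67 ± 0.58 on the log2 scale (SE, limma, unadjusted p = 0.0139, adjusted p = 0.888), so it did not pass the adjusted threshold. Over 22 alternatives it ran from 1.10 to 2.12, with an unadjusted p between 0.000945 and 0.0468.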

How the results depend on the processing

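The 0 calls in the other 5 comparisons stayed at 0 under every alternative run (22 or 23 a comparison). Between the lines under salt, 1 gene was called, and 16 of 23 alternatives also called 1. The count was 2 with array weights, 2 with the fit over the compared groups only and 0 when a gene's probe sets were averaged. Leaving out 1 array at a time gave 0 to 2. It was 0 without FL478 salt replicate 3, IR29 salt replicate 1 or IR29 salt replicate 3 and 2 without FL478 control replicate 2. HAK22 was called in 19 of 23 alternatives, with an adjusted p of 0.00409 to 0.478. Replicate numbers are shared between groups. In their deviations from the group means, the 15 same-number pairs of arrays correlated at -0.107 to 0.285 (median 0.042), with 5 above 0.1. The 30 other pairs correlated at -0.308 to 0.303 (median -0.0335), with 5 above 0.1. These correlations cannot decide whether a number marks a shared source, since deviations within so small a group cancel each other. The labels name no shared source for a number, so the numbers were not taken to pair the arrays. With a replicate block the count under salt stayed 1, with HAK22 at 1.87 ± 0.33 (adjusted p = 0.0160), and the block changed no other call. Of 28 changes with an unadjusted p under 0.05, 0 changed sign in any alternative, against 113 of the other 194. Changes picked by a low p are likely to keep their sign, since the alternatives reused the same arrays. No alternative took a second probe set alone, on which the HAK22 difference under salt was -0.84. The AKT1 change in FL478 kept an unadjusted p under 0.05 in 9 of 23 alternatives. With arrays scaled to a common median, the median of all probe sets was 0.195 instead of -0.016 in the difference between the responses and 0.131 instead of -0.015 between the lines under salt. An added constant of 64 brought the HAK1 change in FL478 to -0.63 and the HAK13 difference under salt to 0.79. Signal under 16 on at least 1 array limits ACA1, HAK3, HAK13, HAK16, HAK20, HAK26 and HAK27.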
